A study of Homo sapiens with 12 samples.

Results

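Serglycin, encoded by SRGN, was followed in wild-type (WT) and CRE-deleted (ΔCRE) MDA-MB-231 cells over a time course of PMA/Ionomycin stimulation. SRGN was taken as the feature of the expression table that carries exactly this gene symbol, which is 1 of the 24331 features listed. It was chosen by its FPKM values in ΔCRE and WT cells, being higher in ΔCRE than in WT cells in these same libraries, so the comparison of SRGN between the genotypes is described with values and carries no test. Its response to stimulation was not used in that choice and was tested.

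MDA-MB-231 is a human triple-negative breast cancer cell line that is invasive and expresses the transcription factor ETS1. In ΔCRE cells, CRISPR/Cas9 removed the NFAT and NF-κB sites from the core regulatory element (CRE) upstream of the ETS1 start site, and the GEO labels call these cells KO. WT cells are the same line without the deletion, and the number of ΔCRE clones behind the libraries was not given in the sources used here. Both genotypes were sequenced before stimulation (0 h) and after 6 h and 24 h of phorbol 12-myristate 13-acetate (PMA), an activator of protein kinase C, together with Ionomycin, a calcium ionophore, with 2 biological replicates in each of the 6 groups and 12 libraries in all. Values are FPKM, fragments normalised to transcript length and to library size, so they can be compared between genes of different length. No unstimulated cells kept for 6 h or 24 h were among the samples analysed here, so time in culture and stimulation cannot be told apart.

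Serglycin is a small secreted proteoglycan whose core protein carries a stretch of serine-glycine repeats to which glycosaminoglycan chains are attached. In mast cells, neutrophils and cytotoxic lymphocytes it is packed into secretory granules, where its negatively charged chains hold proteases and other basic proteins. It is also made outside the blood lineages, and aggressive breast cancer cells such as MDA-MB-231 secrete it with chondroitin sulfate chains.

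The SRGN feature, listed as XLOC_002491, spans chromosome 10 from 70847828 to 70864567 on the plus strand of hg19, and no other feature of the table overlaps it. The GENCODE annotation of the same build places the gene from 70847859 to 70864561 with 2 transcripts. Its coding transcript, SRGN-201, has 3 exons. Exon 1 (70847859 to 70847992) holds the 5′ UTR and the start codon, exon 2 (70856840 to 70856987) is coding throughout, and exon 3 (70863627 to 70864561) holds the end of the coding sequence and the 3′ UTR from 70863874. FPKM values sum over the transcripts, so they do not tell which transcript was made.

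One library stood apart from the rest. The FPKM values of the library labelled KO 0 h replicate 1 summed to 1423335, against 566255 to 651080 in the other 11. A list of 20 blood cell marker genes, included because serglycin is best known from blood cells, summed to 437 FPKM in that library and to 3.36 to 5.67 FPKM in the other 11. In those 11 libraries 8 of the 20 markers were listed at 0 throughout, 17 stayed under 1 FPKM, and the highest single value was 2.7 FPKM, for the leukocyte integrin subunit ITGB2. Of the line's own markers, the mesenchymal list VIM, CD44, ANXA1, CAV1 and SPARC summed to 2210 to 3550 FPKM, and ESR1 averaged 0.00161 FPKM and CDH1 0.0063 FPKM. PGR was listed at 0. The other 4 of the 7 genes expected low were present. The epithelial keratin KRT8 reached 513 FPKM, ERBB2 15.4 FPKM, and the means of EPCAM and GATA3 were 2.55 and 2.32 FPKM. The list expected low summed to 287 to 531 FPKM in these 11 libraries and to 4810 FPKM in the library labelled KO 0 h replicate 1. There the epithelial adhesion genes EPCAM and CDH1 were at 1140 and 52.3 FPKM, KRT8 at 3570 FPKM and the blood marker LYZ at 361 FPKM, which goes against its label as MDA-MB-231 cells. It is therefore shown apart, ΔCRE cells at 0 h are represented by 1 library unless stated, and the model assumed that this library varied like those of the other groups.

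SRGN was expressed in every library, and the 5 ΔCRE libraries in the fit lay above all 6 WT libraries. In WT cells at 0 h SRGN was 31.4 and 30.7 FPKM in the 2 replicates. After 6 h it was 63.0 and 61.8 FPKM, and after 24 h it was 48.7 and 49.0 FPKM. These are bulk libraries, in which fewer cells expressing a gene and less RNA per cell cannot be told apart. WT replicates lay close together and the 3 times did not overlap. In ΔCRE cells SRGN was 89.5 FPKM at 0 h, 165 and 178 FPKM at 6 h, and 155 and 142 FPKM at 24 h. The library shown apart held 74.6 FPKM. That library also held blood cell markers, and serglycin is made by blood cells, so its SRGN cannot be assigned to ΔCRE cells. The value of the 1 unstimulated ΔCRE library in the fit was thus above the highest WT value, from cells stimulated for 6 h.

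**Figure D1:**
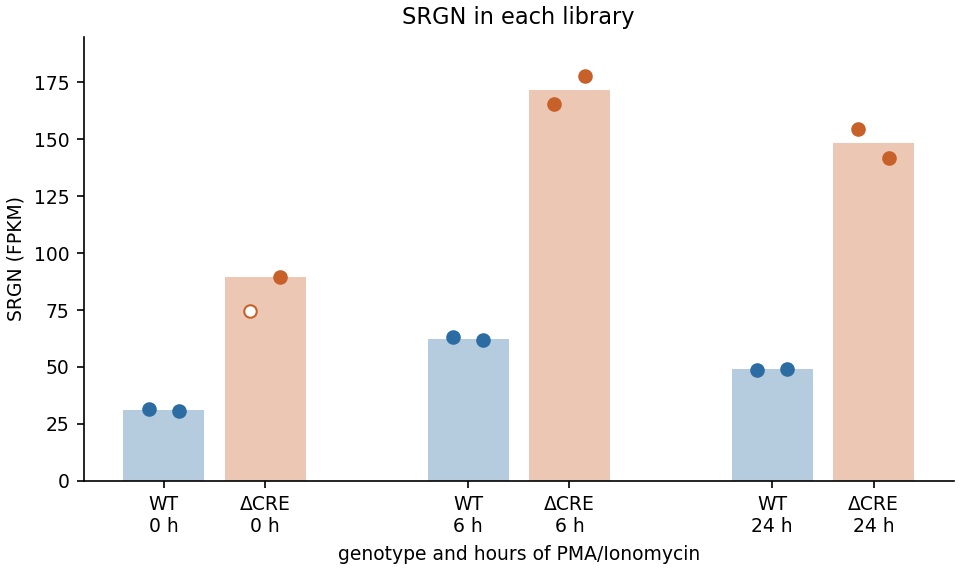
SRGN level in FPKM (vertical axis, from 0) for WT (blue) and ΔCRE (orange) cells at 0, 6 and 24 h of PMA/Ionomycin. Points are libraries, bars are group means, and the open point (74.6 FPKM) is the library shown apart, which is not in its bar. Both genotypes were highest at 6 h, and every filled ΔCRE point lies above every WT point.

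The group means ran from 31.1 ± 0.491 FPKM in WT at 0 h, through 48.9 ± 0.204 at 24 h and 62.4 ± 0.848 at 6 h (SD, n = 2 each), to 89.5 in ΔCRE at 0 h (n = 1), 148 ± 9.11 at 24 h and 172 ± 8.78 at 6 h (SD, n = 2 each). Neighbouring groups in this order were separated by more than the spread between replicates, except ΔCRE at 24 h and 6 h. Those 2 groups did not overlap, but the gap between their nearest libraries was smaller than the distance between replicates within either group. Among the 11256 features with a mean of at least 1 FPKM, SRGN stood above 75.3 to 75.6% in unstimulated WT cells and above 86.3 to 86.4% in WT cells at 6 h. In stimulated ΔCRE cells it stood above 94.7 to 95.3%.

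SRGN rose in stimulated WT cells. On the log2(FPKM + 1) scale, the change from 0 h to 6 h was 0.99 with a standard error of 0.059 (95% interval 0.85 to 1.12, limma, adjusted p = 5.15e-06), and the ratio of mean FPKM was 2.01. By 24 h the change from 0 h was 0.64 ± 0.059 (SE, limma, adjusted p = 4.76e-05), a ratio of 1.57. All stimulated WT libraries lay above both unstimulated ones. A response of some size was common in these cells. The same test, at an adjusted p under 0.05 over the 11256 features, called 44.4% of all features at 6 h, of which 23.3% rose and 21.1% fell, each as a share of all tested. At 24 h it called 54.6%, with 26.5% up and 28.2% down. At 6 h 3.26% of features had a larger rise than SRGN. With each library rescaled to the same sum (TPM), the median change of all features at 6 h in WT moved from 0.00 to -0.12 and the calls from 2620 higher and 2373 lower to 1894 higher and 3513 lower, and SRGN still rose, by 0.87.

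From 6 h to 24 h SRGN fell in WT cells, by 0.35 on the log2 scale with a standard error of 0.059 (limma, adjusted p = 0.00177), which left it at a ratio of 0.783 to its 6 h level. This fall held in 19 of 20 alternative settings and lost its call only when the library shown apart entered the fit (adjusted p = 0.137). Over all features 46.8% were called between 6 h and 24 h in WT, 2303 higher and 2964 lower, against 3208 higher and 1780 lower with TPM.

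ΔCRE cells followed the same course from a higher start. SRGN rose by 0.93 ± 0.072 from 0 h to 6 h (SE, limma, adjusted p = 3.83e-05), a ratio of 1.92, and the rise from 0 h to 24 h was 0.72 ± 0.072 (SE, limma, adjusted p = 0.000129), a ratio of 1.65. All features were called at 29.8% and 41.5% in these 2 comparisons. At 6 h 1895 features were called higher and 1464 lower, which TPM turned into 1201 higher and 2578 lower. From 6 h to 24 h SRGN fell by 0.21 with a standard error of 0.059 (limma, adjusted p = 0.0175), beside 49.6% of all features called, 2489 higher and 3097 lower. This last fall is the least firm of the time changes. It was no longer called with TPM (-0.11, adjusted p = 0.166, with 3219 features higher and 2082 lower), with quantile normalization (-0.03, adjusted p = 0.649), with the library shown apart in the fit (-0.21, adjusted p = 0.352), without ΔCRE 6 h replicate 2 (adjusted p = 0.107) or without ΔCRE 24 h replicate 2 (adjusted p = 0.111).

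In FPKM the gain was larger in ΔCRE cells, at 82.0 FPKM from 0 h to 6 h against 31.4 in WT, but as a ratio the changes were alike in size. The difference between genotypes in the log2 change, ΔCRE minus WT, was -0.06 from 0 h to 6 h (95% interval -0.27 to 0.16, limma, adjusted p = 0.911). It was 0.08 from 0 h to 24 h (-0.13 to 0.29, adjusted p = 0.809) and 0.14 from 6 h to 24 h (-0.05 to 0.33, adjusted p = 0.837). Few features of any kind were called for such a difference, 0.267%, 0.275% and 0.16% in the same order. The first 2 differences rest on the single ΔCRE library at 0 h. With the library shown apart in its place, an alternative chosen after seeing the data, they were 0.20 (adjusted p = 0.0614) and 0.34 (adjusted p = 0.00835).

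The excess of SRGN in ΔCRE cells was thus of about the same proportion at each time. The ratio of ΔCRE to WT means was 2.88 at 0 h, 2.75 at 6 h and 3.03 at 24 h, or differences of 58.4, 109 and 99.2 FPKM. On the log2(FPKM + 1) scale these were 1.50, 1.44 and 1.58, beside a median over all tested features of 0.01 at each time. Taken library by library against the WT mean of the same time, the ratio was 2.88 at 0 h, 2.65 and 2.85 at 6 h, and 3.16 and 2.90 at 24 h. The library shown apart gave 2.40, from SRGN that cannot be assigned to ΔCRE cells. At 0, 6 and 24 h respectively, 51, 30 and 27 of the tested features had a larger ΔCRE excess than SRGN. These values were the ground on which SRGN was chosen.

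SRGN lies in a stretch of chromosome 10 where most features were higher in ΔCRE cells, so its excess was set beside that of its neighbours. The 5 nearest tested features on each side were SLC25A16, CCAR1, DDX50, DDX21 and KIAA1279 below it and VPS26A, SUPV3L1, HK1, TSPAN15 and C10orf35 above it. Between them they encode a mitochondrial carrier, RNA helicases, a retromer subunit, a hexokinase and a tetraspanin, and none is a proteoglycan. All 10 had a positive ΔCRE minus WT difference at each time. The median was 0.38 at 0 h (range 0.18 to 0.45), 0.47 at 6 h (0.13 for HK1 to 0.63 for TSPAN15) and 0.41 at 24 h (0.23 for C10orf35 to 0.54 for DDX21). SRGN exceeded these medians by 1.12, 0.97 and 1.17.

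DDX21, an RNA helicase of ribosomal RNA processing, lies 126 kb from SRGN. It was 139 and 142 FPKM in WT and 187 and 201 FPKM in ΔCRE cells at 6 h, a ratio of 1.38. TSPAN15, a tetraspanin partner of the sheddase ADAM10, was 9.48 and 9.60 FPKM in WT and 16.5 and 14.1 FPKM in ΔCRE cells, a ratio of 1.60. HK1, the hexokinase, was 91.6 and 90.3 FPKM in WT and 101 and 97.5 FPKM in ΔCRE cells, a ratio of 1.09. ΔCRE libraries lay above WT libraries for each of these genes at 6 h, as they did for all 10 neighbours, beside 29.0% of all tested features. At 6 h 7 of the 10 were called higher (3.62% of all features were called higher, 6.22% lower and 9.83% in either direction), and at 24 h 8 of the 10 (2.35% higher, 3.97% lower and 6.33% in either direction). At 24 h all features split into 265 higher and 447 lower, against 180 higher and 548 lower with TPM.

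Most features of a wider window had the same sign. Of the 54 tested features within 5 Mb of SRGN, 52 had a positive ΔCRE minus WT difference at 0 h, 50 at 6 h and 51 at 24 h, with medians of 0.35, 0.36 and 0.36. SRGN lay above every one of them at all 3 times. Its distance over the window median was 1.15, 1.09 and 1.22, or 2.21, 2.13 and 2.32 times on the linear scale. The spread between replicates of this distance, given as 1 value for all groups, was an SD of 0.06. Single ΔCRE libraries, against the WT mean, lay further apart, at 1.01 and 1.15 at 6 h and 1.27 and 1.15 at 24 h. Windows of 1 Mb (15 features) and 10 Mb (74 features) put the distance at 6 h at 0.97 and 1.09. The highest neighbours at 6 h were TSPAN15 at 0.63, SLC25A16 at 0.62 and COL13A1, a transmembrane collagen, at 0.56. The lowest were LRRC20 at -0.92 (limma, adjusted p = 0.00093) and CHST3, a chondroitin 6-O-sulfotransferase, at -0.38 (limma, adjusted p = 0.0111).

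At 6 h 35 of the 54 were called higher and 2 lower, and at 24 h 34 were called higher. These counts depended on single libraries, whereas the excess of SRGN over the window median stayed between 1.01 and 1.15 at 6 h and between 1.15 and 1.27 at 24 h when each library was left out in turn. The 37 calls at 6 h became 18 without WT 6 h replicate 1 and 22 without WT 6 h replicate 2 or without ΔCRE 6 h replicate 2. The 34 calls at 24 h became 7 and 14 without WT 24 h replicate 1 and 2, and 17 and 10 without ΔCRE 24 h replicate 1 and 2. With the library shown apart in the limma fit none of the 54 was called at either time, while 18 had an unadjusted p under 0.05 at 6 h and 18 at 24 h. Of all 11676 features in that fit 20 were called at 6 h and 17 at 24 h. An unadjusted p under 0.05 was reached by 581 and 432 of them. The library shown apart also differed from the 5 ΔCRE libraries of the main fit in this stretch. Its window median against WT was 0.03, beside 0.35 to 0.38 in those 5. SRGN exceeded the median by 1.01 to 1.27 in those 5. The value in the library shown apart was 1.21, but its SRGN cannot be assigned to ΔCRE cells.

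**Figure D2:**
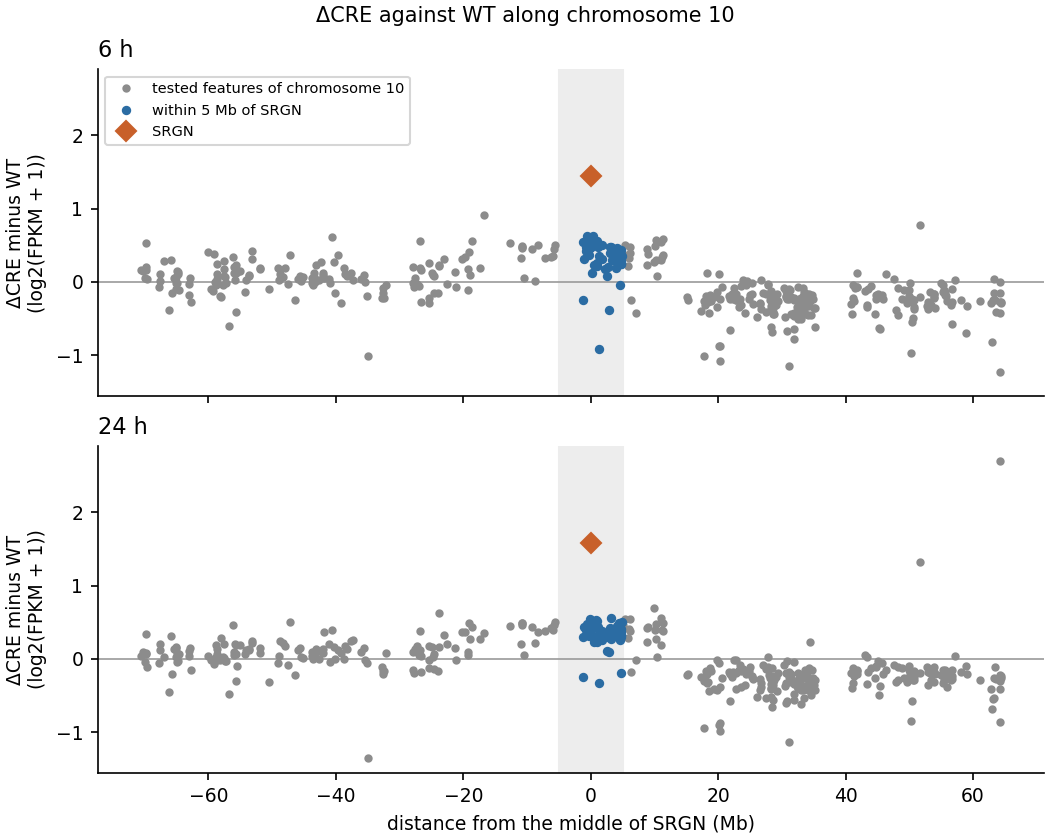
ΔCRE minus WT difference of mean log2(FPKM + 1) for each tested feature of chromosome 10 (vertical axis) against its distance from the middle of SRGN in Mb (horizontal axis), at 6 h and 24 h. Blue points lie within 5 Mb of SRGN (shaded) and have medians of 0.36 at both times, and the orange diamond is SRGN, at 1.44 and 1.58.

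Along the chromosome, the raised stretch was broad. In segments of 10 Mb the median difference at 6 h was 0.32 from 50 to 60 Mb, 0.44 from 60 to 70 Mb and 0.37 from 70 to 80 Mb, where SRGN lies, and -0.18 from 80 to 90 Mb. Below 50 Mb the segment medians ranged from -0.12 to 0.10 over the 3 times, and above 90 Mb from -0.31 to -0.18.

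The same 10 neighbours were read for their response to stimulation. In WT cells at 6 h 1 of the 10 was called higher, HK1 at 0.49, and 2 lower, TSPAN15 at -0.86 and CCAR1 at -0.23, with a median of -0.02, against 0.99 for SRGN. Over all features 23.3% were called higher and 21.1% lower at this time. At 24 h HK1 (0.70) and C10orf35 (0.66) were called higher and 5 were called lower, led by DDX21 at -0.86, with a median of -0.19, beside 26.5% of all features higher and 28.2% lower. Counts this small out of 10 are not read against those shares. SRGN, at 0.64, was close to the 2 that rose at that time. These directions were the same with TPM and quantile normalization for each gene named here.

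**Figure D3:**
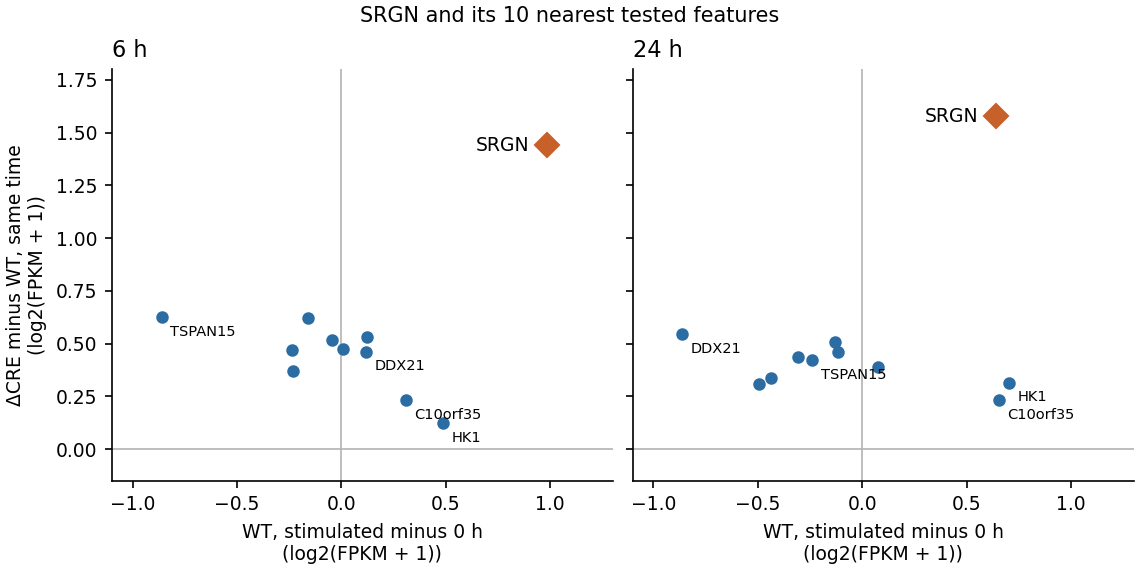
Change with stimulation in WT cells (horizontal axis) against the ΔCRE minus WT difference at the same time (vertical axis), both as log2(FPKM + 1), for SRGN (orange diamond) and its 10 nearest tested features (blue). At 6 h SRGN lies at 0.99 and 1.44, and no neighbour exceeds 0.49 on the first axis or 0.63 on the second.

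The deletion was made at ETS1, which lies on another chromosome. ETS1 itself was 24.0 and 23.7 FPKM in WT at 0 h, 139 and 145 at 6 h, and 36.2 and 39.7 at 24 h. ΔCRE cells had 16.5 FPKM of ETS1 at 0 h, 62.8 and 62.2 at 6 h, and 29.3 and 30.7 at 24 h, lower than WT at each time, and it was 5.08 in the library shown apart. Both genes peaked at 6 h, but ETS1 was lower in ΔCRE cells and SRGN higher. Over the 11 libraries, which share these groups, the Pearson correlation of their log2(FPKM + 1) values was 0.139.

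Among the genes for proteoglycan core proteins, SRGN moved up the order in ΔCRE cells. Over 37 such genes, SRGN included, it ranked 6th at 0 h, 3rd at 6 h and 4th at 24 h in WT cells, and 1st, 2nd and 1st in ΔCRE cells. Its share of their summed FPKM was 7.82%, 8.05% and 11.4% in WT and 19.8%, 20.0% and 27.2% in ΔCRE cells. In WT at 0 h it stood between the neuropilin NRP1 (39.9 FPKM) and the basement membrane collagen COL18A1 (23.7 FPKM), apart from both. In WT at 24 h SRGN (48.7 to 49.0 FPKM) and NRP1 (48.7 to 48.9 FPKM) overlapped. In ΔCRE at 6 h only the syndecan SDC4 was higher, at 306 FPKM, and the hyaluronan receptor CD44, at 170 FPKM in both replicates, lay within the range of SRGN. At 24 h SRGN, at 148 FPKM, stood above CD44 at 107 FPKM by more than the spread of either.

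**Figure D4:**
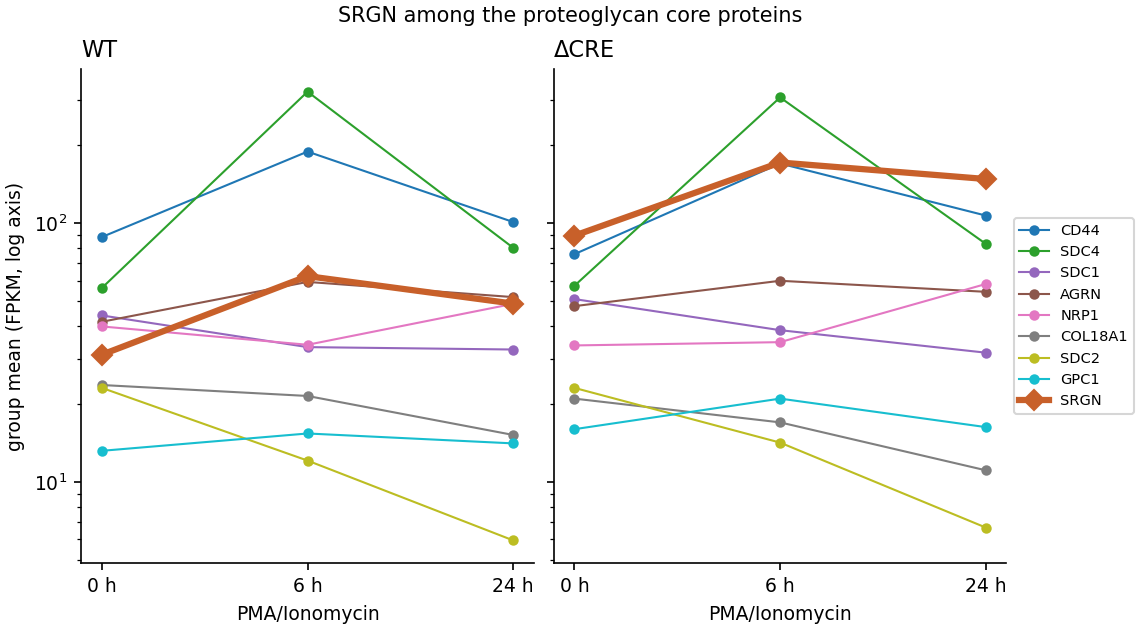
Group mean FPKM (log axis) of SRGN and 8 other proteoglycan core protein genes at 0, 6 and 24 h in WT (left) and ΔCRE (right) cells. In WT cells SRGN is near the level of AGRN at 6 h and 24 h and of NRP1 at 24 h. In ΔCRE cells it is near CD44 at 6 h and is the highest shown at 0 h and 24 h.

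The other core proteins changed in both directions. Of 36 other genes listed, 13 had enough signal to be tested, and at 6 h in WT 3 rose and 7 fell, with a median of -0.23, beside 23.3% of all tested features higher and 21.1% lower, so the number that rose was near the share over all features. SDC4 went from 56.2 ± 2.94 to 322 ± 2.52 FPKM (SD, n = 2 each), a change of 2.50 (limma, adjusted p = 6.53e-09). CD44 rose by 1.09 and the heparan sulfate proteoglycan AGRN by 0.50, while the syndecan SDC2 fell by 0.87. At 24 h 4 had risen and 6 fallen from 0 h (26.5% and 28.2% of all features), among them SDC2, which fell by 1.79, and SDC4, still 0.51 above 0 h. The change of SRGN at 24 h, 0.64, was larger than that of any of the 4.

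The enzymes that build glycosaminoglycan chains were read against the share of all features called, 44.4% at 6 h and 54.6% at 24 h in WT. Of 22 genes for the linker tetrasaccharide and for chondroitin and dermatan sulfate, 19 were tested. In WT at 6 h 9 rose and 3 fell (63.2% called, median 0.25), led by DSE, the epimerase that makes dermatan sulfate, at 0.80, and CHST3 at 0.78. At 24 h 9 rose and 5 fell (73.7%), with DSE at 1.18 and the linker glucuronyltransferase B3GAT3 at 1.07. With TPM 7 rose and 3 fell at 6 h. Of 21 heparan sulfate enzymes 11 were tested, and 3 rose and 4 fell at 6 h (63.6%), led by the N-deacetylase NDST1, which fell by 0.75. At 24 h 3 rose and 3 fell (54.5%, near the share of all features), and HS3ST1 was highest at 1.18. HS3ST1, at 0.785 FPKM in WT at 0 h and 3.04 FPKM at 24 h, passed the filter on mean FPKM only through stimulated libraries. Its rise was thus favoured by the filter. The 7 calls at 6 h became 4 without WT 6 h replicate 1 or WT 6 h replicate 2. Of 12 genes that supply sulfate and nucleotide sugars 11 were tested, with 3 up and 3 down at 6 h and at 24 h (54.5% at each time, which at 24 h is near the share of all features). UGDH, which makes UDP-glucuronate, rose by 0.64 at 6 h. With TPM 1 heparan sulfate enzyme rose and 5 fell at 6 h, and 1 supply gene rose and 4 fell. The 6 calls at 6 h among the supply genes became 3 without WT 6 h replicate 1 and without either WT 24 h replicate. With the library shown apart in the fit, limma called none of these enzyme or supply genes at 6 h, with 5 linker and chondroitin, 1 heparan and 2 supply genes at an unadjusted p under 0.05. That fit called 857 of all 11676 features in WT at 6 h, and 2323 had an unadjusted p under 0.05.

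Between genotypes most of these genes were not called. Over all features 6.22% were called lower at 6 h and 9.83% in either direction. Of the 19 linker and chondroitin enzymes tested, 5 were lower in ΔCRE cells at 6 h. These were CSGALNACT1, which starts the chondroitin chain, at -1.01 (limma, adjusted p = 0.0054), the xylosyltransferase XYLT2 at -0.68, CHST3, CHPF and CHST14. This count became 2 without WT 6 h replicate 1, WT 6 h replicate 2 or ΔCRE 6 h replicate 2. At 24 h CSGALNACT1 (-0.74) and B4GALT7 (-0.32) were lower, beside 3.97% of all features called lower. CSGALNACT1 was a low feature, at 0.673 FPKM in ΔCRE and 2.36 FPKM in WT cells at 6 h, and 0.632 and 1.76 FPKM at 24 h. It passed the filter of 1 FPKM through its level in WT cells, which favours such a difference. CHPF2, a related polymerizing factor, had a WT SD of 44.2 FPKM at 6 h around a mean of 51.5 FPKM, which allowed no statement on it. One core protein was higher in ΔCRE cells at each time, GPC1 at 0.42 at 6 h (limma, adjusted p = 0.0177) and NRP1 at 0.25 at 24 h (limma, adjusted p = 0.0391). This was 7.69% of the 13 tested, near the 9.83% and 6.33% of all features called in either direction at these times. With TPM or quantile normalization the 1 core protein called at 24 h was instead a lower one. The heparan sulfate enzyme NDST2, itself on chromosome 10 within 5 Mb of SRGN, was higher at 6 h, by 0.37, and EXTL3 was lower at 24 h, by 0.29 on the log2 scale. Each was the only call of 11 tested at its time (9.09%). This was near the 9.83% of all features called at 6 h and stood beside 6.33% at 24 h. Of the supply genes UGDH (0.42) and BPNT1 (0.33) were higher at 6 h, and PAPSS2, which makes the sulfate donor, was lower at 6 h (-0.42) and 24 h (-0.44). This was 27.3% of the 11 tested at 6 h and 9.09% at 24 h, beside the same 9.83% and 6.33%. PAPSS2 also lies on chromosome 10, 18.6 Mb from SRGN. Its segment, from 80 to 90 Mb, had a median difference of -0.18 at 6 h and -0.16 at 24 h.

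These genotype counts of 1 to 3 were fragile. The 6 h counts for core proteins and for heparan sulfate enzymes fell to 0 without either WT 6 h or either ΔCRE 6 h library, and the supply count of 3 fell to 1 without either WT 6 h library or ΔCRE 6 h replicate 2. The 6 h core protein count was 2 without either WT 0 h library. At 24 h the heparan sulfate count fell to 0 without any 1 of the 8 libraries at 6 h and 24 h, and the core protein count did so without either WT 6 h library or any 24 h library and was 2 without ΔCRE 0 h replicate 2. The 24 h count of 2 for linker and chondroitin enzymes was 4 without either WT 0 h library, 1 without WT 24 h replicate 1 or either ΔCRE 6 h library, and 0 without either WT 6 h library, WT 24 h replicate 2 or either ΔCRE 24 h library. In the main limma fit, an unadjusted p under 0.05 was reached at 24 h by 3 core protein, 3 heparan sulfate and 6 linker and chondroitin genes, and at 6 h by 5, 3 and 11. The genes tested were 13, 11 and 19 in the same order. Of all 11256 features, 2387 reached it at 24 h and 2703 at 6 h.

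Several genes for proteins known to bind serglycin or its chains rose beside it. Of 19 listed, 7 were tested and 6 rose in WT at 6 h (median 2.17), beside 23.3% of all features higher. MMP13, at 0.138 FPKM in WT at 0 h, passed the filter on mean FPKM only through stimulated libraries. Its rise was thus favoured by the filter. CD44, also among those that rose, is counted with the core proteins as well. The chemokine CXCL8, listed under its older symbol IL8, went from 1.62 ± 0.193 to 1600 ± 7.67 FPKM (SD, n = 2 each), a change of 9.26 (limma, adjusted p = 1.39e-10). The chemokine CCL2 rose by 4.57, the collagenase MMP13 by 3.46, and the plasminogen activators PLAT and PLAU by 2.17 and 0.96. At 24 h 5 were above 0 h (26.5% of all features) and PLAU was below it, at -1.26. In ΔCRE cells, in which SRGN was higher, 3 of the 7 were called at each time, against 9.83% of all features at 6 h and 6.33% at 24 h. PLAT (-1.83 at 6 h and -1.02 at 24 h) and MMP13 (-1.63 and -0.97) were lower. CXCL8 was lower at 24 h, at -0.73 (limma, adjusted p = 0.00305), and PLAU, which lies within 5 Mb of SRGN, was higher at 6 h, by 0.25, and stood at -0.20 at 24 h without passing the test (limma, adjusted p = 0.0572).

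As a measure of stimulation itself, 24 genes known to respond to phorbol ester or calcium ionophore were read in the same fit. Of 20 tested, 15 rose and 1 fell in WT at 6 h (median 1.62), against 44.4% of all features called in either direction, and 14 were higher and 2 lower at 24 h, against 54.6%. MMP1, PTGS2, NR4A1, NR4A2, TNFAIP3, IL6 and ATF3 were under 1 FPKM in WT at 0 h. They passed the filter on mean FPKM through libraries where they were higher. The counts and medians over time therefore lean towards a rise and are descriptions. PTGS2, the inducible cyclooxygenase, rose by 4.63 at 6 h, TNFAIP3, an NF-κB feedback inhibitor, by 3.71, the cytokine IL6 by 3.26 and the phosphatase DUSP5 by 3.25. SRGN, at 0.99, rose by less than the median of this list, to which the same limit applies. In ΔCRE against WT cells 2 of the 20 were higher and 4 lower at 6 h, with a median of -0.05, against 3.62% of all features higher and 6.22% lower. At 24 h 5 were higher and 3 lower, with a median of 0.05, against 2.35% and 3.97%.

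The features whose profile over the 11 libraries was most like that of SRGN were AGAP6 (Pearson r = 0.968 of log2(FPKM + 1)), POLR3A (0.965), SGPL1 (0.958), NVL (0.956), FSTL3 (0.955), IGFN1 (0.955), LOC201651 (0.952), RPS24 (0.947), NT5DC2 (0.942) and PDGFA (0.941). They were ranked on these same libraries, which share groups and depth, so the coefficients are descriptions. Of the 10, AGAP6, POLR3A, SGPL1 and RPS24 lie on chromosome 10 between 50 and 80 Mb, a stretch that holds 0.791% of the tested features. This stretch is the one with raised segment medians in ΔCRE cells in these same data. The ΔCRE excess on which SRGN was chosen also shapes the ranking, so the count is not read against that share. Likeness was in shape more than in size. SRGN ranged over 2.50 on the log2(FPKM + 1) scale, IGFN1 over 3.77 and LOC201651 over 2.69, whereas NVL ranged over 0.36 and SGPL1 over 1.02. The immunoglobulin-like protein gene IGFN1 was at 0.0828 FPKM in WT at 0 h and at 12.8 FPKM in ΔCRE at 6 h. The ribosomal protein gene RPS24 was at 2610 and 3750 FPKM in the same groups.

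**Figure D5:**
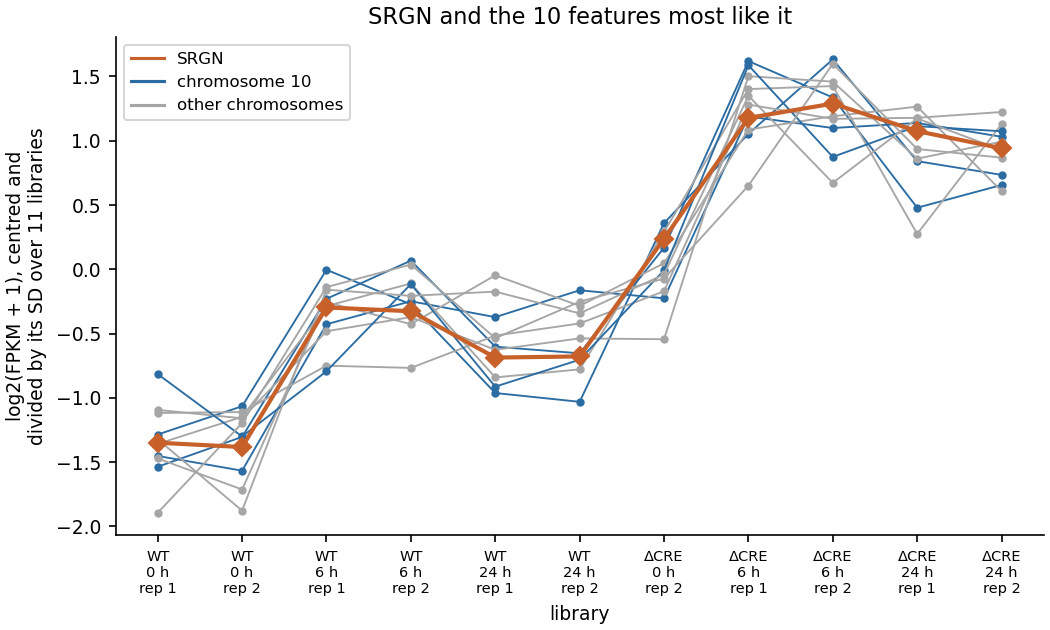
log2(FPKM + 1) of SRGN (orange diamonds) and of the 10 features with the highest Pearson correlation with it (blue on chromosome 10, grey elsewhere) in 11 libraries, each centred and divided by its SD. On average all rise from WT at 0 h to 6 h and are higher in stimulated ΔCRE cells than in stimulated WT cells, with r from 0.941 to 0.968.

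The nearest neighbours of SRGN ranked lower in likeness. Their correlation with it ran from 0.183 for TSPAN15 to 0.899 for KIAA1279, a kinesin-binding protein, over the same 11 libraries.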

How the data were processed

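RNA-sequencing libraries were prepared by the authors with a stranded poly(A) kit and mapped to hg19 with TopHat, and expression was estimated with Cufflinks. The deposited table gives FPKM values per feature and library, as the authors made them, with no filter applied here before the steps below. The depth of each library is unknown, since FPKM gives no counts, and the steps between low values put it at an estimated 0.73 to 1.19 times that of WT 0 h replicate 1. The members and gene lists were chosen with earlier results of these data known.

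Features with a mean of at least 1 FPKM over 11 libraries (11256 of 24331) were tested in limma 3.58.1 (R 4.3.3) on log2(FPKM + 1), with 1 mean per group, a trended prior and Benjamini-Hochberg adjustment over all of them. A fold on this scale understates changes of low features. Called means an adjusted p under 0.05. Two-sided tests were used. The library labelled KO 0 h replicate 1 was kept out and is an alternative. On simulated data with 200 features changed by 1 log2 unit among 11256, the fit recovered 99.5% for WT at 6 h against 0 h. The noise was normal with the fit's own spread, and only features above a set level were changed. Far fewer changed than the 44.4% called in the real comparison. High recovery was thus built in, and this checks the code and not the power in these data. Named genes were SRGN, its 5 nearest tested features on each side, up to 4 members of each list per comparison with the largest called change or the highest level, the 10 features most correlated with SRGN, and ETS1. LRRC20, COL13A1, KRT8, CHPF2 and others named as exceptions were picked once their values had been seen. The lists were proteoglycan core proteins, linker and chondroitin sulfate enzymes, heparan sulfate enzymes, sulfate and nucleotide sugar supply, serglycin-binding proteins, PMA and ionomycin response genes, blood cell markers and markers of the line. Columns named KO 61_2 and KO 01_2 were read as KO 6 h replicate 2 and KO 0 h replicate 2.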

Additional observations from a re-analysis of the deposited data

How the results depend on the processing

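The rise of SRGN with stimulation kept its direction and its call in each alternative setting run, in WT at 6 h (0.87 to 1.01 on the log2 scale, adjusted p from 3.51e-06 to 0.00187, 20 alternatives) and 24 h (0.62 to 0.66, 2.76e-05 to 0.0122) and in ΔCRE at 6 h (0.79 to 1.06) and 24 h (0.66 to 0.85). These ΔCRE ranges leave out the exchange of 0 h libraries described below, which gave 1.19 and 0.98. Depth limits what can be said of low features, and 2 replicates limit the precision of each spread.

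With all 12 libraries in the fit, SRGN minus the window median at 0 h was 1.25, SRGN between genotypes at 0 h was 1.37, the falls from 6 h to 24 h lost their call (-0.35 in WT, adjusted p = 0.137, and -0.21 in ΔCRE, adjusted p = 0.352), and the genotype difference in the change from 0 h to 6 h turned to 0.075 (adjusted p = 0.762). The limma counts then became 0 for the 54 neighbours at both times (18 and 18 at an unadjusted p under 0.05). Between genotypes they became 0 at 6 h and 24 h for core proteins (1 and 1 unadjusted), linker and chondroitin enzymes (3 and 2), heparan sulfate enzymes (1 and 0) and supply genes (1 and 1), and 0 at 24 h for serglycin binders (2). In WT at 6 h and 24 h they became 4 and 2 for core proteins, 0 and 3 for linker and chondroitin enzymes, 0 and 1 for heparan sulfate enzymes, and 0 and 0 for supply genes. Over all 11676 features of this fit the counts were 857 and 1221 in WT at 6 h and 24 h. Between genotypes they were 20 and 17 (581 and 432 unadjusted). The cause was not tested.

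With the library labelled KO 0 h replicate 1 in place of replicate 2, chosen after seeing the data, SRGN between genotypes at 0 h was 1.24, and the differences in change became 0.34 (adjusted p = 0.00835) to 24 h and 0.20 (reversed, adjusted p = 0.0614) to 6 h. TPM and quantile normalization ended the call of the ΔCRE fall from 6 h to 24 h (-0.11 and -0.033), and quantile normalization put SRGN between genotypes at 6 h at 1.37. The genotype count of heparan sulfate enzymes at 6 h was 2 with TPM, quantile normalization or no filter and 0 with a mean of at least 5 FPKM, and at 24 h it was 3 without the trend. That of linker and chondroitin enzymes at 24 h was 4 with quantile normalization, 1 with a pseudocount of 0.1 or no trend, and 0 with no filter, which gave 3 at 6 h. That of core proteins at 24 h was 2 with a pseudocount of 0.1, no filter or a mean of at least 5 FPKM and 0 without the trend, and 2 at 6 h with no filter. No filter also gave 5 serglycin binders between genotypes at 6 h, 3 supply genes in WT at 6 h, and SRGN minus the window median of 1.24 at 0 h and 1.19 at 6 h. A window of 1 Mb gave 0.97 at 6 h and 12 calls at each time, from 15 features.

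The correlations of same-numbered deviations ran from -0.068 to 0.202. Values this low do not settle whether libraries with the same replicate number shared an effect. The replicate block changed no call of SRGN (WT at 6 h 0.99, adjusted p = 9.14e-06, and ΔCRE from 6 h to 24 h -0.21, adjusted p = 0.0123). With this block the genotype counts at 6 h and 24 h were 3 and 3 for heparan sulfate enzymes and 3 and 2 for core proteins. At 24 h they were 4 for linker and chondroitin enzymes and 3 for supply genes. These list counts stand beside the 1805 and 1407 of all 11256 features called in the same fit, so the rise was not particular to the lists. Without the block, the main fit had 1107 and 712 such calls. In WT cells at 6 h against 0 h, 5929 features were called with the block, beside 4993 in the main fit. The source of these added calls was not tested.

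Leaving out each replicate in turn, where the lone library was assumed to vary like the other groups, gave the following ranges. SRGN between genotypes was 1.48 to 1.51 at 0 h, 1.39 to 1.50 at 6 h and 1.52 to 1.64 at 24 h, and SRGN minus the window median 1.13 to 1.20, 1.01 to 1.15 and 1.15 to 1.27. The ΔCRE fall from 6 h to 24 h was -0.27 to -0.15. The neighbour counts were 18 to 37 at 6 h and 7 to 37 at 24 h. Genotype counts at 6 h and 24 h were 0 to 2 and 0 to 2 for core proteins, 2 to 5 and 0 to 4 for linker and chondroitin enzymes, 0 to 1 and 0 to 1 for heparan sulfate enzymes and 1 to 3 and 1 to 1 for supply genes. In WT at 6 h they were 4 to 8 for heparan sulfate enzymes and 3 to 6 for supply genes.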

Other observations

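A few neighbours of SRGN went against the stretch in which SRGN lies. LRRC20, a leucine-rich repeat protein gene 1.24 Mb from SRGN, was lower in ΔCRE cells at all 3 times, at -0.23, -0.92 and -0.33 on the log2(FPKM + 1) scale, and passed the test at 6 h (limma, adjusted p = 0.00093) but not at 24 h (adjusted p = 0.0834). CHST3, 2.89 Mb away, was lower at 6 h (-0.38) and at 0.09 at 24 h. DNAJC12, a co-chaperone gene 1.28 Mb on the other side, was at -0.25 at 6 h and -0.24 at 24 h without passing the test (adjusted p = 0.345 and 0.399). PLAU, the urokinase gene 4.82 Mb away, was higher at 6 h (0.25) and at -0.20 at 24 h (adjusted p = 0.0572). DDIT4, a stress-induced inhibitor of mTOR signalling, was the highest of the 54 at 24 h, at 0.56, and lay far under SRGN at 1.58.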
